A study of Caenorhabditis elegans with 80 samples.

Results

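The cuticle collagen genes of the col family were followed across adult age and across 1 mutant strain of the nematode Caenorhabditis elegans. Members were all genes of the deposited count table whose WormBase symbol is col followed by a number, with col-183 left out, which gave 155 of 46904 genes. All 155 are annotated as protein-coding in the WBcel235 assembly, with a median exonic length of 1020 bases (465 to 2960). RNA came from whole worms of the wild-type strain N2, at 5 adult ages (days 6, 8, 11, 14 and 18), each with 6 libraries. A further 30 libraries of N2 at day 6, called N2 set 2 here, and 20 libraries of CF1038 at day 6 formed the strain comparison. CF1038 carries the daf-16(mu86) deletion, which removes function of DAF-16, the FOXO transcription factor at the end of the insulin-like signalling pathway. All worms were hermaphrodites grown at 20 °C on OP50-1 bacteria with streptomycin, and every group, controls included, received FUDR, which blocks DNA synthesis and so prevents progeny. The labels do not say from which event days were counted, nor whether libraries came from separate cultures, so each p-value reflects only how far these libraries vary.

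The cuticle is the worm's outer skeleton, secreted by the hypodermis before hatching and again at each larval moult. Most of it is small collagens, whose Gly-X-Y chains are hydroxylated, folded into triple helices, trimmed by proteases and cross-linked outside the cell. Different collagen genes are switched on at different stages. Adult-specific members such as col-19 are the textbook markers of the last moult, and collagen expression in adults is known to be tied to lifespan in worms with reduced insulin signalling.

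Library totals ran from 34443138 to 44161452 estimated counts. In CF1038, daf-16 read 92.1 ± 9.10 CPM (counts scaled to a common library size; mean ± SD, n = 20; 71.6 to 104.9), below all 30 libraries of N2 set 2 (160.4 ± 19.7; 125.9 to 199.5), a log2 change of -0.81 (SE 0.04, adjusted p = 2.8e-23, edgeR's quasi-likelihood test). The mu86 deletion removes part of the gene, so reads from the rest still count. CF1038 libraries 9 and 11 stood apart from their group in muscle markers (7 genes, summed 646 and 733 CPM, against 1079 to 2757 in the other 18) and in the abundant collagens. N2 set 2 libraries 24 to 30 stood apart in the variable collagens described further on. Counts over the family and named members of the strain comparison are also given without these libraries; the companion gene lists are not.

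Levels within the family covered a wide range, and members were put into classes at fixed cut-offs. Averaged over the 7 groups and scaled by exonic length, 22 members reached at least 100 CPM per kb and were called abundant, 23 lay between 10 and 100 (middle), 50 between 1 and 10 (low) and 60 under 1 (trace). Abundant members ran from col-119 at 4950 CPM per kb to col-166 at 127.8, and the first member outside the class was col-3 at 83.5. Those 22 genes carried 92% of all col CPM on average, with a range of 66.2% to 98.6% over the 80 libraries. After col-119 the order by CPM per kb was col-143 (2944), col-122 (2579), col-181 (2187), col-140 (2019), col-106 (1615), col-184 (1464), col-8 (1355) and col-19 (1131). None of the 22 lies on chromosome I, where 14 of 21 members were trace. Chromosome III carries 12 members, 5 of them abundant and 1 trace. Chromosome II carries 24 members, 2 of them abundant, chromosome IV 41 and 6, chromosome V 31 and 4, and chromosome X 26 and 5.

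Together the 155 genes supplied 2.61% of normalised reads at day 6 (26086 ± 3967 CPM), 3.25% at day 8, 3.10% at day 11 and 3.29% at day 14 (32931 ± 7414 CPM). At day 18 the sum was 15148 ± 4183 CPM, or 1.51% (n = 6 per age). All 6 libraries of day 18, at 9651 to 19798 CPM, lay below all 6 of day 6, at 20289 to 30553. In RNA from whole worms, fewer hypodermal cells and less RNA per cell cannot be told apart.

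**Figure D1:**
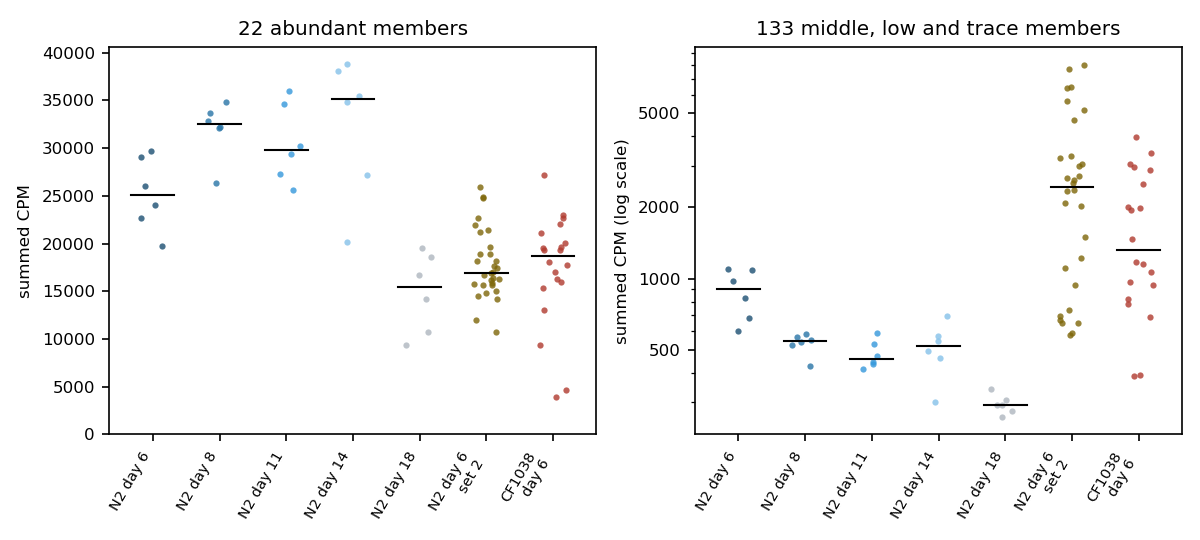
Summed CPM per library (points) and group median (bar) of the 22 abundant members, on a linear axis, and of the 133 middle, low and trace members, on a log axis, in the 7 groups. Abundant members were lowest at day 18 among the N2 ages, at 9390 to 19491 CPM, while the less abundant ones spread most widely in N2 set 2.

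Of the 155 members, 133 had enough counts in the time course to be tested, including all abundant, middle and low members and 38 of the 60 trace members. Members with few counts enter only if they are high at some age, so counts over the trace class are a description. Among those tested, 112 differed among the 5 ages (80.2% of all genes tested did), including 22 of 22 abundant and 23 of 23 middle members. All tests are edgeR quasi-likelihood tests with Benjamini-Hochberg adjustment over all genes tested, and a member is said to rise or fall where its adjusted p is under 0.05.

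Of the 9 members with the highest levels, 6 were higher at day 14 than at day 6, and col-140 and col-19 were lower (log2 -1.32 and -0.55). For col-119 the day 14 value was 0.31 (adjusted p = 0.0622). All 9 were lower at day 18 than at day 14. col-119 (chromosome IV, 8978926 to 8979795) had a lowest, median and highest library of 3473, 4649 and 5757 CPM at day 6. The same 3 values were 5199, 6272 and 6938 at day 8, 3873, 5818 and 6501 at day 14, and 1644, 2453 and 3028 at day 18. Every day 18 library was thus below every library of the earlier ages. The fitted log2 change was 0.43 at day 8 (SE 0.14, adjusted p = 0.045) and -0.89 at day 18 (SE 0.14, adjusted p = 2.95e-06), both against day 6. With all 36 N2 day 6 libraries as controls the day 18 call was lost (log2 -0.29, adjusted p = 0.167).

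col-143 (chromosome V, 6835635 to 6836704) rose further. Its day 6 libraries ran from 1306 over a median of 2272 to 3030 CPM, and its day 14 libraries from 3295 over 5277 to 7588, with no overlap. The log2 change at day 14 was 1.26 (SE 0.19, adjusted p = 1.14e-06). At day 18 it was back at 1508, 2612 and 3326 CPM, within the day 6 range apart from its top, and the change against day 6 was 0.23 (SE 0.18, adjusted p = 0.296), or 0.80 with all 36 day 6 libraries as controls (adjusted p = 9.36e-05). Nearly the same course was seen for col-122 and col-181. For col-122 the means were 1905 ± 267 CPM at day 6, 4135 ± 1029 at day 14 and 2022 ± 485 at day 18, and for col-181 they were 1685 ± 202, 4109 ± 1121 and 2111 ± 463. Both rose by day 14 (log2 1.15 and 1.32), and col-181 was still above day 6 at day 18 (log2 0.41, SE 0.15, adjusted p = 0.0233), a call lost under 4 of 13 alternative settings.

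col-95 (chromosome III, 11703994 to 11705091) was the abundant member with the largest rise by day 18. Its libraries read 368, 454 and 795 CPM (lowest, median, highest) at day 6, 946, 1134 and 1752 at day 14, and 630, 784 and 920 at day 18. Day 14 lay wholly above day 6, and day 18 overlapped it only through the 1 highest day 6 library. The log2 change was 1.28 at day 14 (SE 0.15, adjusted p = 1.42e-08) and 0.70 at day 18 (SE 0.15, adjusted p = 1.62e-04), the latter 0.33 with all 36 day 6 libraries as controls (adjusted p = 0.0544). Its neighbour col-96, a middle member that ends the same tandem pair, followed it up to day 14 (log2 1.35), and the summed pair went from 543 ± 163 to 1293 ± 305 and 824 ± 105 CPM. Among the remaining abundant members, col-106, col-184, col-8 and col-42 also rose by day 14, by log2 0.51 to 0.86.

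A second group of abundant members declined from day 11 on. col-160 (chromosome V, 13200982 to 13202189) held 295, 477 and 670 CPM at day 6 and 358, 541 and 645 at day 8. It then read 155, 189 and 241 at day 11, 52.5, 99.4 and 163.9 at day 14 and 8.85, 17.5 and 26.6 at day 18. From day 11 on no library overlapped day 6. The log2 change at day 18 was -4.76 (SE 0.28, adjusted p = 6.83e-15). The middle member col-159, whose annotation overlaps col-160, fell by log2 4.58. Both have counts that are not whole in over 90% of libraries, so the pair's sum is the safer value: 516 ± 137 CPM at day 6 and 18.1 ± 7.83 at day 18.

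The tandem group col-92, col-93 and col-94 (chromosome III, 10982139 to 10987873) moved in the same way. Its summed level was 688 ± 182 CPM at day 6, 580 ± 79.7 at day 8, 197 ± 58.4 at day 11, 129.3 ± 57.7 at day 14 and 20.1 ± 15.1 at day 18. Within the group, col-94 fell by log2 5.15 and col-93 by 4.66 by day 18. All 3 have estimated rather than whole counts in at least 95% of libraries, as happens when reads match several genes, and all 3 overlap dhc-4. A later course was that of col-101 and col-178, which still stood near the day 6 level at day 14 (log2 0.11 and -0.07, neither called) and fell by 1.85 and 1.77 by day 18. Already lower by day 14, and lower still by day 18, were col-140 (2911 ± 446 to 417 ± 198 CPM, log2 -2.72, SE 0.24, adjusted p = 2.66e-11), col-20 (log2 -3.51), col-80 (-3.08), col-98 (-2.87) and col-124 (-2.61), all values for day 18.

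col-19, the adult-specific collagen used as a read-out of the larva-to-adult switch, lay between these courses. It read 1139, 1513 and 1841 CPM at day 6 and 318, 543 and 719 at day 18, again with no overlap, and fell by log2 1.495 (SE 0.16, adjusted p = 1.96e-09). Of its day 8 libraries 5 lay between 1518 and 1608 CPM, close to the day 6 median.

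**Figure D2:**
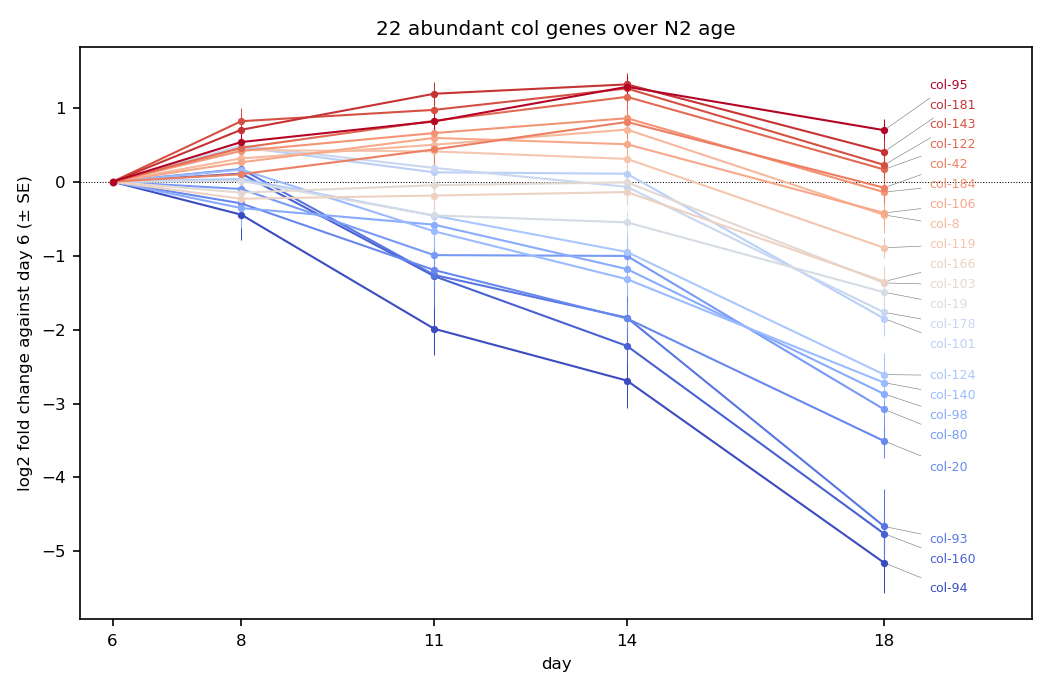
Log2 fold change against day 6 (y axis, ± SE derived from the F statistic) of the 22 abundant members at days 8, 11, 14 and 18 (x axis, 6 libraries per age). Lines fan out from day 8, from col-94 at -2.69 to col-181 at 1.32 on day 14, and all 22 bend downward between days 14 and 18.

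Between day 14 and day 18 all 22 abundant members fell, by a median log2 of -1.29, against a median of 0.05 over all genes tested, of which 23.5% were lower. The smallest of these falls was that of col-95 (log2 -0.59, SE 0.15, adjusted p = 0.00137) and the largest that of col-93 (-2.82). In the same step 16 of 23 middle members fell and 0 rose, whereas low members split into 11 lower and 6 higher and trace members into 3 and 6. Markers of other tissues moved in the same step: 7 of 7 muscle markers and 8 of 8 intestinal ones were lower. All 10 of 10 sperm genes were higher, as were 27.5% of all genes tested. Summed muscle markers were 993 to 2218 CPM on day 14 and 445 to 862 CPM on day 18, and intestinal ones 28521 to 72342 and 14551 to 23899 CPM. Hypodermal markers other than collagens gave 4 lower and 1 higher of 13, with sums of 816 to 1653 CPM at day 14 and 1012 to 1098 at day 18. The part of these tissues in the collagen falls was not tested.

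Against day 6, the balance of the family shifted with each age. At day 8, 47 members were lower (6.12% of all genes tested were) and 6 higher (5.55%), with a median log2 of -0.42 against -0.02 over all genes. None of the 22 abundant members was among those lower, while 16 of 23 middle and 25 of 50 low members were. In libraries 4 to 6 alone the day 8 counts were 30 and 1 (1.2% and 1.93% of all genes tested), and with all 36 N2 day 6 libraries as controls 76 and 20 (25% and 20.5%). Leaving out library 2, 3 or 4 of every age gave 3, 2 and 3 higher at day 8 (3.05%, 2.8% and 3.2% of all genes tested). At day 11 there were 58 lower (19.9%) and 19 higher (24%), and at day 14 68 lower (26.9%) and 21 higher (29.8%). By day 18, 78 were lower (28%) and 21 higher (29%), and the median was -0.96 against -0.01. Abundant members then gave 15 lower and 2 higher, middle members 21 and 1, low members 31 and 9 and trace members 11 and 9 of 38. Of the 47 members lower at day 8, 42 were also lower at day 18, 5 did not pass and 0 were higher; the day 6 libraries are shared by both comparisons.

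Between neighbouring ages, 17 members were lower (11.7%) and 15 higher (18.0%) at day 11 against day 8, and 12 lower (4.52%) and 3 higher (10.1%) at day 14 against day 11. The first step gave 4, 5 and 8 higher members without library 1, 2 or 4 of every age, where 12.5%, 12.3% and 14.3% of all genes tested were higher, and 5 in libraries 4 to 6 alone (7.53%). The second was called for 22 lower and 8 higher members in libraries 1 to 3 alone (17.8% and 18.6% of all genes), and for 2 and 1 in libraries 4 to 6 alone (5.04% and 7.46%). Leaving out library 1 or 2 gave 6 and 5 lower in that step (2.15% and 2.29%), and leaving out library 6 gave 6 higher (11.2%). From day 14 to day 18, 52 members were lower and 12 higher, where 23.5% and 27.5% of all genes tested were lower and higher. Without library 1 or 3 the members higher numbered 7 and 6 (24% and 22.7% of all genes tested were higher). In libraries 4 to 6 alone they numbered 4 (18.3%).

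**Figure D3:**
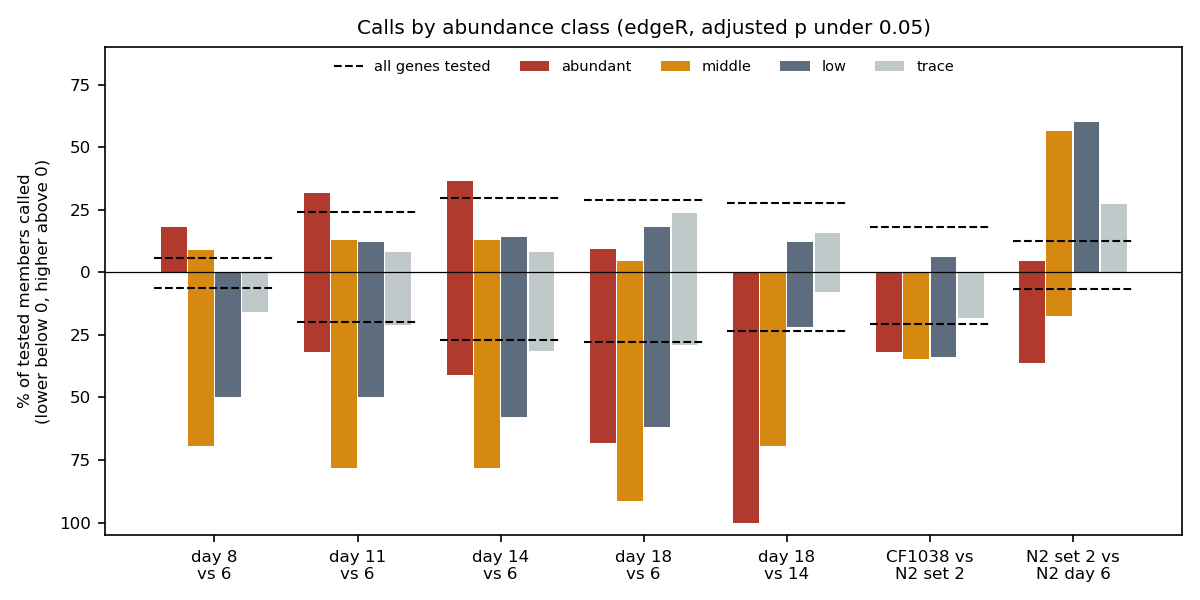
Percent of tested members of each abundance class that were higher (above 0) or lower (below 0) in 7 comparisons, with the percent over all genes tested as dashed lines. At day 8 the falls were in the middle, low and trace classes, and from day 14 to day 18 all 22 abundant members were lower.

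The falls at day 8 came from members with low levels and large folds. col-10 (chromosome V, 9164292 to 9165307), which rises with SKN-1 activity in long-lived worms, read 14.4, 37.3 and 89.3 CPM at day 6 and 2.30, 5.08 and 6.34 at day 8. It ended at 0.47, 0.82 and 1.02 CPM at day 18. All day 8 and day 18 libraries lay below all day 6 libraries, and the log2 changes were -3.13 (SE 0.39, adjusted p = 3.72e-06) and -5.67 (SE 0.45, adjusted p = 5.17e-12). Similar sizes were fitted at day 8 for col-147 (log2 -4.35), col-17 (-4.20), col-117 (-4.03) and col-167 (-3.87). These are the members with at least 10 CPM in the higher group. The last 2 have counts that are not whole in most libraries, and their calls at day 8 were lost under 4 and 1 of 13 settings. Summed over the pair, col-117 and col-3 (chromosome IV, 8822962 to 8826013) held 33.9 to 202.4 CPM on day 6, 7.62 to 19.3 CPM on day 8 and 6.79 to 9.28 CPM on day 18. The 5 genes col-167 to col-171 (chromosome X, 6323488 to 6335221) together held 17.5 to 104.8 CPM at day 6 and 1.15 to 6.57 at day 8. Of 12 larval moulting markers, 5 were lower and 2 higher at day 8 (median log2 -0.35), and their sum was 152 to 195 CPM at day 6 and 154 to 178 at day 8. Of 10 sperm genes 5 were lower, with sums of 4.30 to 12.5 and 2.79 to 4.68 CPM, and of 13 hypodermal markers 3 were lower, with sums of 843 to 1484 and 1244 to 1553 CPM. Of all genes tested, 6.12% were lower and 5.55% higher at day 8. The part of these tissues in the day 8 falls was not tested.

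Of all members with at least 10 CPM in the higher group, col-92 had the largest fall by day 18. Its values were 11.4, 14.0 and 23.9 CPM at day 6, and by day 18 3 of 6 libraries were at 0 and the highest at 0.053. col-139 (chromosome V, 4652863 to 4653971), which has whole counts in every library and overlaps no other gene, is a cleaner case. It read 32.6, 38.4 and 55.2 CPM at day 6, 11.1, 16.2 and 26.6 at day 8, 2.41, 3.37 and 5.69 at day 14 and 0.81, 1.29 and 1.92 at day 18. Each of those ages lay wholly below day 6. Its log2 change at day 18 was -4.92 (SE 0.28, adjusted p = 8.9e-16).

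Members that rose by day 18 were mostly rare. col-111 (chromosome IV, 4655791 to 4657974) had the largest rise among those with at least 10 CPM. It read 5.0, 6.08 and 7.02 CPM at day 6, 9.21, 10.1 and 13.2 at day 11, 11.8, 17.9 and 24.5 at day 14 and 19.8, 21.7 and 25.5 at day 18. From day 11 on all its libraries lay above all day 6 libraries. The log2 change at day 18 was 1.93 (SE 0.13, adjusted p = 6.82e-14); col-111 overlaps psr-1, and the strand setting of the counting is not given in the sources used here. col-2, a collagen known from the dauer larva, had 0.79 ± 0.27 CPM at day 6 and rose to 1.43 ± 0.20 (log2 0.93, SE 0.17, adjusted p = 3.35e-05). col-120, listed with the SKN-1-linked collagens, had 0.52 ± 0.09 CPM at day 6 and rose to 0.95 ± 0.34 (log2 0.94, SE 0.26, adjusted p = 0.00245). Of the 21 members higher at day 18, 9 were trace, 9 low, 1 middle and 2 abundant. The shares higher were 23.7% of trace and 18.0% of low members tested, both under that over all genes. Trace members enter the test only if they are high at some age, so their count is a description.

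Members with a known role otherwise went different ways. col-41 and col-142, targets of the DBL-1 BMP-like pathway that sets body size, fell by day 18 by log2 2.17 (adjusted p = 9.02e-10) and 0.51 (adjusted p = 0.0128), and the latter call was lost under 3 of 13 settings. Another target, col-141, went from 0.53 ± 0.17 to 1.11 ± 0.17 CPM (log2 1.13, adjusted p = 8.82e-04); with all 36 N2 day 6 libraries as controls its value was -0.11. col-13 and col-12, a neighbouring pair, fell by log2 2.28 and 1.94. The transmembrane collagen col-99, which acts in the nervous system, read 4.23 ± 0.41 CPM at day 6 and 5.30 ± 1.02 at day 18 (log2 0.40, SE 0.17, adjusted p = 0.0434). That call was lost under 7 of 13 settings, and in 1 more, with all 36 controls, the value was -0.10. Adult collagen col-7 was at trace level and read 0.37 ± 0.09 CPM at day 6 and 0.24 ± 0.10 at day 18 (adjusted p = 0.161).

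**Figure D4:**
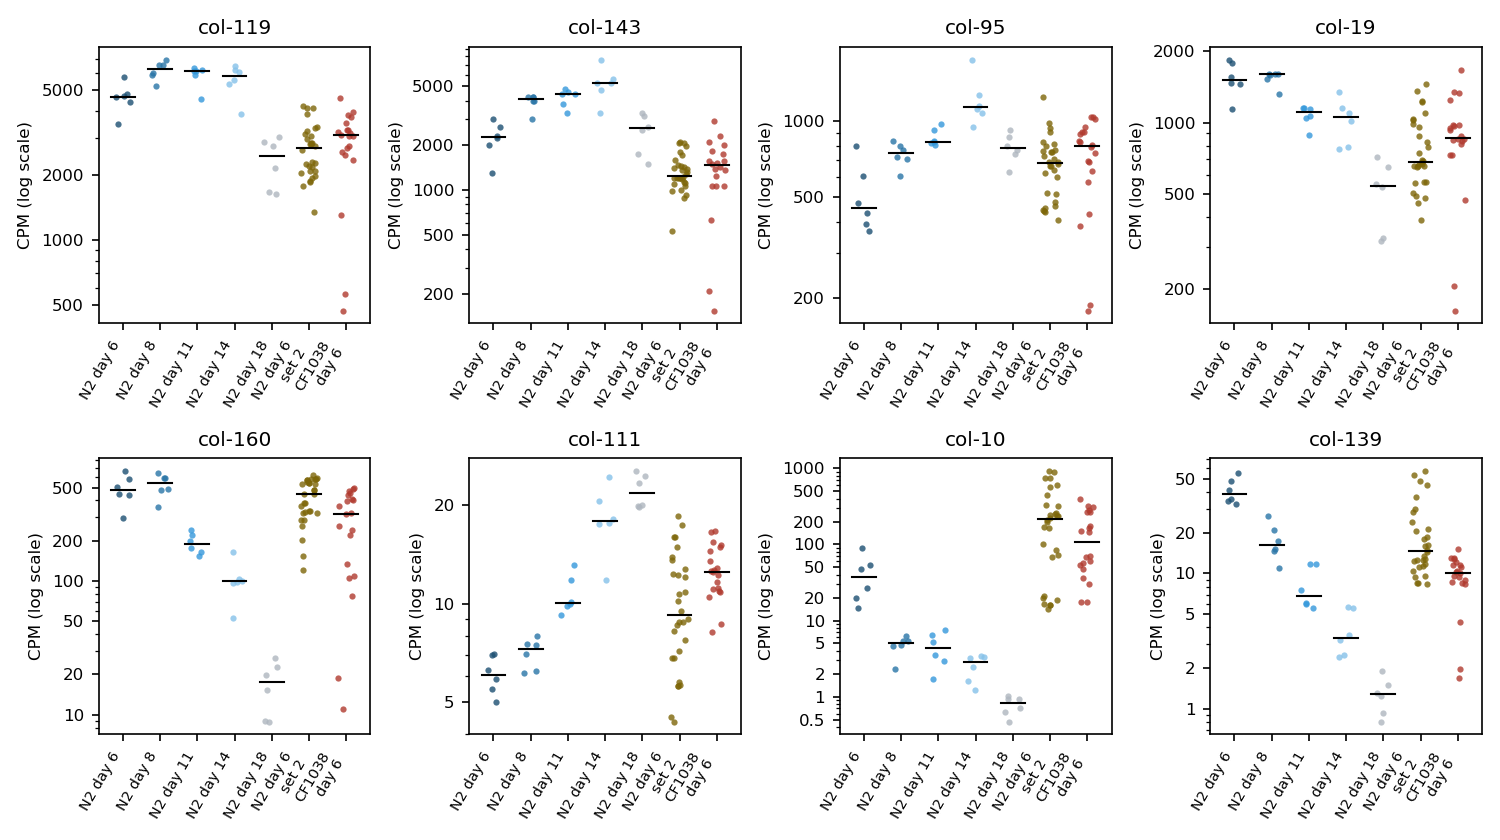
CPM per library (points, log axes) and group median (bar) of 8 members in the 7 groups. col-119, col-143 and col-95 kept high levels to day 14, col-19 was lower from day 11 on, col-160, col-10 and col-139 declined from day 8 or day 11, and col-111 climbed to 19.8 to 25.5 CPM at day 18.

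Genes that work alongside the family were counted from 3 lists. Of 19 other cuticle collagens (dpy, rol, sqt, bli and lon genes that shape the body), 14 were lower at day 8 and 0 higher (median log2 -1.51), and 13 were lower and 2 higher at day 18 (median -1.61). dpy-13 fell by log2 3.58 at day 8 and 5.10 at day 18, and rol-6 by 4.13 at day 8. Of 25 genes for collagen synthesis and cross-linking, 0 were lower and 4 higher at day 8, and 2 were lower and 9 higher at day 18 (median 0.16). Those that rose at day 18 include the protein disulphide isomerases pdi-1 (log2 0.76, SE 0.08, adjusted p = 4.71e-10) and pdi-3 (0.59) and the endoplasmic reticulum chaperone crt-1 (0.68). At day 8 the rises included dpy-18, the prolyl 4-hydroxylase subunit (log2 0.31, adjusted p = 0.00675), bli-4, a procollagen-processing protease (0.36, adjusted p = 0.017), and bli-3, the oxidase that cross-links collagen (0.38, adjusted p = 0.0371). Of 19 regulators, 3 were lower and 3 higher at day 18; blmp-1 and bed-3, transcription factors of the moulting programme, fell by log2 1.35 and 0.92, and the nuclear receptor nhr-25 by 0.69.

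N2 set 2 shares strain and age with the day 6 libraries of the time course. The sets were told apart by the form of their library names, which do not say how they differ. Their comparison showed how far the family can differ with no other labelled difference. Of 143 members tested, 57 were higher in set 2 (12.3% of all genes tested were) and 12 lower (6.51%), with a median log2 of 0.50 against 0.04 over all genes. The direction differed by class: 8 abundant members were lower and 1 higher, and 4 middle members were lower and 13 higher. Of 50 low members 30 were higher and 0 lower, and of 48 trace members tested 13 and 0. Members with few counts enter only if they are high in some libraries of these sets, so counts over the trace class are a description. col-119 read 2680 ± 756 CPM in set 2 (n = 30) and 4625 ± 734 in the time course (log2 -0.76, SE 0.15, adjusted p = 0.002), and col-19 was lower by log2 0.94, while col-147 and col-12 were higher by 2.94 and 3.09.

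Within set 2 the less abundant members spread widely. col-10 ranged from 14.2 over a median of 217.6 to 934.8 CPM, col-117 from 10.4 over 218.6 to 1047, and col-147 from 6.23 over 119.1 to 662.3, which is a 106.4-fold range for the last. Among the 65 members with at least 10 CPM in set 2, 30 had an SD above 1 on the log2 scale over its libraries (1.23 to 2.09), and 35 had less (0.21 to 0.98). This division was chosen after the values were seen and is a description. The wide-spread 30 include col-10, col-12, col-13, col-17, col-41, col-92, col-107, col-117, col-147 and col-166, the last being the sole abundant one. In 29 of the 30, the 7 lowest libraries were numbers 24 to 30, and in 12 of them the 5 highest were numbers 1 to 5. The narrow-spread 35 hold the other 21 abundant members, and in 2 of them the 7 lowest libraries were numbers 24 to 30.

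Summed over the 30, set 2 libraries held from 227 to 8120 CPM, with a median of 2260. Libraries 1 to 10 held 2342 to 8120 CPM, 11 to 20 held 809 to 3074, and 21 to 30 held 227 to 2439, of which numbers 24 to 30 made up the range 227 to 318. The day 6 libraries of the time course read 237 to 823. The narrow-spread 35 summed to 10831 to 26252 CPM in set 2, and numbers 24 to 30, at 14466 to 26252, lay within that range. Larval moulting markers moved with the wide-spread members. Their sum (12 genes, 0 of them under 1 CPM) was 331 to 564 CPM in libraries 1 to 10, 256 to 494 in 11 to 20, 164 to 386 in 21 to 30 and 152 to 195 in the time course at day 6, and 9 of 12 were higher in set 2. Other cuticle collagens did the same, with 503 to 1411 CPM in libraries 1 to 10 and 162 to 802 in 21 to 30. Of these 19, 16 were higher in set 2, as were 12.3% of all genes tested. Early embryo markers summed to 56.6 to 74.4 CPM in libraries 1 to 10 and 44.1 to 59.0 in 21 to 30. Other tissues differed along the same order. Intestinal markers summed to 24150 to 40750 CPM in libraries 1 to 10 and 38701 to 65502 in 24 to 30. Hypodermal markers other than collagens held 868 to 1431 and 691 to 1031 CPM in the same libraries, and muscle markers 1763 to 3175 and 1263 to 2358. The part of any of these in the collagen spread was not tested.

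Against the time course at day 6, libraries 1 to 10 of set 2 gave 79 members higher and 19 lower (29.3% and 24.9% of all genes tested), and libraries 11 to 20 gave 61 and 15 (14.6% and 10.1%). Libraries 21 to 30 gave 0 and 0 in edgeR, with 0 of 15749 genes called in all; at an unadjusted p under 0.05 there were 20 of 134 members and 2471 genes. The division used set 2 alone, but the wide-spread members moved together there, and they hold 1 abundant member against 21 in the narrow-spread set. In the time course 28 of the 30 wide-spread members fell by day 8 (median log2 -2.56) and 30 of 30 by day 18 (-3.61). The 35 narrow-spread ones gave 3 lower and 6 higher at day 8 (median 0.17), and 24 lower and 4 higher at day 18 (median -1.11). Over all genes tested, 6.12% were lower and 5.55% higher at day 8, and 28% and 29% at day 18. Members that move together are not separate replicates, so these counts are a description. The summed CPM of the wide-spread 30 was 237 to 823 on day 6, then 113 to 156 (day 8), 105 to 171 (day 11), 74.9 to 191.5 (day 14) and 57.5 to 71.4 (day 18), so that every later library lay below every day 6 library.

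**Figure D5:**
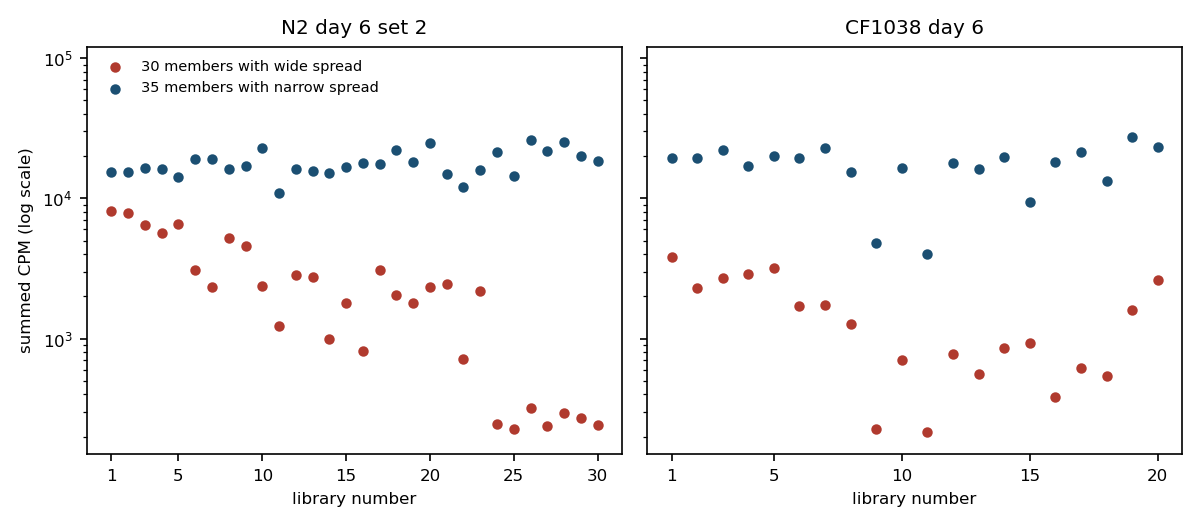
Summed CPM (log axis) of the 30 wide-spread and the 35 narrow-spread members in each library of N2 set 2 and of CF1038, by library number. In N2 set 2 the wide-spread sum was 227 to 318 CPM in libraries 24 to 30, while the narrow-spread sum stayed between 10831 and 26252 CPM; in CF1038, libraries 9 and 11 were lowest in both.

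The CF1038 comparison asks how collagen expression at day 6 differs without DAF-16. Of 139 members tested against N2 set 2, 40 were lower (20.7% of all genes tested were) and 3 higher (18.0%), with a median log2 of -0.34 against -0.02 over all genes. By class, 7 of 22 abundant, 8 of 23 middle, 17 of 50 low and 8 of 44 trace members were lower. The trace count is a description here too, since members with few counts enter only if they are high in some of these libraries. The 3 higher members, all low, were col-43 (log2 1.02, adjusted p = 0.00282), col-150 (0.62, adjusted p = 0.0299) and col-38 (0.26, adjusted p = 0.0123). Their calls were lost under 2, 7 and 3 of 13 alternative settings, and all 3 stood without CF1038 libraries 9 and 11. Without N2 libraries 24 to 30 col-150 was at 0.57 (adjusted p = 0.0585).

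The counts depended on which N2 libraries served as controls. N2 libraries 1 to 10 alone gave 81 lower and 6 higher, where 31.5% and 29.3% of all genes tested were lower and higher. Libraries 11 to 20 gave 19 and 1 (13.6% and 9.77%), and 21 to 30 gave 5 and 9 (9.85% and 8.05%). The median log2 over the members was -0.58, -0.23 and 0.23 in these 3 settings, against -0.02, 0.005 and 0.02 over all genes. Without N2 libraries 24 to 30 the counts were 74 and 3 (29% and 21.6%), and with N2 libraries 1 to 20 they were 77 and 3 (29.2% and 27.6%). CF1038 libraries 1 to 10 alone gave 7 and 2 (10.1% and 8.38%), and CF1038 libraries 11 to 20 gave 49 and 6 (21.8% and 22.9%). Leaving out CF1038 libraries 9 and 11 gave 28 and 8 (19% and 16.6%), and abundant members then gave 5 lower and 2 higher.

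Between the strains the wide-spread 30 overlapped, at 217 to 3791 CPM in CF1038 and 227 to 8120 in N2 set 2. CF1038 libraries 1 to 10 held 226 to 3791 CPM and 11 to 20 held 217 to 2620. Of these 30 members, 9 were lower in CF1038 (median -0.81), against 11 of the narrow-spread 35 (median -0.17). The division was made on the N2 libraries that serve as controls here, so these counts are a description. Without N2 libraries 24 to 30, 29 wide-spread members were lower (median -1.15) and 11 narrow-spread ones (-0.14), and with N2 libraries 21 to 30 alone 0 wide-spread members were lower and 2 higher (median 1.065), with 1 lower and 2 higher among the narrow-spread. Without CF1038 libraries 9 and 11 the wide-spread gave 7 lower (median -0.68) and the narrow-spread 8 lower and 3 higher (-0.07).

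For 15 of 22 abundant members no difference between strains passed the test. col-119 had a lowest, median and highest library of 468, 3072 and 4593 CPM in CF1038 and 1352, 2686 and 4236 in N2 set 2. The ranges overlapped, with CF1038 libraries 9, 11 and 15 below all N2 libraries, and the log2 difference was 0.07 (SE 0.15, adjusted p = 0.739). For col-143 the difference was 0.07 (SE 0.18, adjusted p = 0.76), for col-140 0.07 (SE 0.15, adjusted p = 0.752) and for col-106 -0.04 (SE 0.09, adjusted p = 0.704); these values do not show that the strains are equal. Without CF1038 libraries 9 and 11 the 4 values were 0.21, 0.22, 0.20 and 0.04, and without N2 libraries 24 to 30 they were 0.17, 0.15, 0.22 and 0.06, none of them called.

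Among abundant members, col-98 (chromosome III, 13019008 to 13020226) had the largest difference. It read 7.77, 174 and 260 CPM in CF1038 and 126.6, 277 and 432 in N2 set 2, with most libraries overlapping. It was lower by log2 0.88 in CF1038 (SE 0.22, adjusted p = 0.0015), by 0.72 without CF1038 libraries 9 and 11 (adjusted p = 0.000203) and by 0.95 without N2 libraries 24 to 30 (adjusted p = 0.00182). col-80 (log2 -0.78), col-94 (-0.74), col-103 (-0.67) and col-42 (-0.67) were lower as well, and all 5 lost their call with N2 libraries 11 to 20 or 21 to 30 alone or CF1038 libraries 1 to 10 alone. Their values stayed negative in each of those settings, and all 5 kept their call without CF1038 libraries 9 and 11 and without N2 libraries 24 to 30. col-166 (log2 -0.81, adjusted p = 0.0394) was at 0.69 with N2 libraries 21 to 30 as controls and lost its call without CF1038 libraries 9 and 11 (-0.68, adjusted p = 0.0895). col-181 (-0.25, adjusted p = 0.0338) lost its call under 11 of 13 settings, including both of these omissions.

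Below the abundant class, the falls with the largest log2 values among members with at least 10 CPM in the higher group were col-146 (log2 -1.47), col-12 (-1.44), col-176 (-1.36), col-92 (-1.25), col-107 (-1.15), col-13 (-1.14), col-39 (-1.11), col-139 (-1.11), col-77 (-1.03) and col-159 (-0.89). Of these 10, 8 belong to the wide-spread members and had positive values, not called, with N2 libraries 21 to 30 as controls. The exceptions were col-139 and col-159. Without CF1038 libraries 9 and 11, col-39 lost its call (log2 -0.96, adjusted p = 0.0578) and the other 9 kept theirs. All 10 kept their call without N2 libraries 24 to 30. With CF1038 libraries 1 to 10 alone, 0 of the 30 wide-spread members were called lower, so these 8 lost their calls there. The call of col-159 was lost under 3 of 13 settings. col-139 read 1.69, 10.2 and 15.1 CPM in CF1038 and 8.41, 14.7 and 57.4 in N2 set 2, overlapping between 8.41 and 15.1. Its difference of -1.11 (SE 0.24, adjusted p = 2.24e-04) was -0.97 without CF1038 libraries 9 and 11, -0.53 without N2 libraries 24 to 30 (adjusted p = 0.01), -0.23 with N2 libraries 1 to 10 alone (adjusted p = 0.374) and -1.83 with 21 to 30 alone (adjusted p = 8.32e-06). col-139 had a negative value in all 13 alternatives and lost its call in 1 of them.

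Of the 40 members lower in CF1038, 27 were also lower at day 18 of N2, which is 27 of the 78 lower there, and 6 were higher at day 18. Without CF1038 libraries 9 and 11 it was 21 of 28, and without N2 libraries 24 to 30 it was 51 of 74. Over all members tested, 58.6% were lower and 15.8% higher at day 18, and 28.8% were lower in CF1038. The 2 comparisons share no library, but the overlap has to be read against these shares and is a description. Over all genes tested, 20.7% were lower and 18.0% higher in CF1038, the shares against which the lists below have to be read. The companion lists gave 2 lower and 0 higher of 19 other cuticle collagens in CF1038. Of 25 synthesis genes 12 were lower and 3 higher, and of 19 regulators 7 were lower, daf-16 among them, and 0 higher. Among synthesis genes pdi-2, the protein disulphide isomerase that pairs with prolyl hydroxylase, was lower by log2 0.38 (SE 0.06, adjusted p = 6.75e-07) and the protease gene kpc-1 by 0.51. The transcription factor pqm-1 was lower by 0.61 and the Smad gene sma-4 by 0.32. Markers of other tissues gave 4 lower and 1 higher of 13 in hypodermis, 2 and 0 of 7 in muscle, 4 and 1 of 8 in intestine, 1 and 7 of 10 in sperm, 2 and 0 of 12 for larval moulting, 2 and 1 of 11 for early embryos and 0 and 4 of 8 in oocytes and germline, and their part in the collagen differences was not tested.

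The family sits partly in clusters, and its sequences are alike enough to limit counting. 48 members have another member within 5000 bases, in 20 groups, and 54 have estimated rather than whole counts in over 10% of libraries. For col-178, col-166 and col-13 that was so in every library, for col-3 in 98.8% and for col-117 in 86.2%, so single values of these genes are uncertain. In 78 of 79 libraries with a count, col-126 and col-127 had equal values, and they cannot be told apart. Summing the neighbours col-178 and col-179 (chromosome X, 11199455 to 11202485) gave 1023 ± 154 CPM at day 6, 1400 ± 134 at day 8 and 277 ± 128 at day 18. For col-146 and col-147 the sums were 25.1 ± 18.3, 1.21 ± 0.45 and 0.32 ± 0.07 CPM, and for col-12 and col-13 5.98 ± 1.74, 1.20 ± 0.28 and 1.33 ± 0.29. In all, 62 members overlap a gene with counts of its own, and 34 of them are in neither the clustered nor the not-whole count.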

How the data were processed

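Per the submitters' processing notes, reads were handled with FastQC, STAR 2.7.11b and RSEM 1.3.3 on WBcel235; the authors deposited RSEM expected counts per gene for 80 libraries, with 2.73% of values not whole, and no library column was left unmapped. Counts were rounded. Symbols came from a gene table (44017 of 46904 identifiers matched) and lengths and coordinates from the Ensembl WBcel235 annotation. The strand setting of the counting is not given in the sources used here. Levels are CPM scaled by TMM over all 80 libraries, per kb of exon union where genes are compared.

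Tests used edgeR 4.0.16 in R 4.3.3 (TMM, filterByExpr, robust quasi-likelihood F test, 2-sided, Benjamini-Hochberg over all genes, called at 0.05): 1 fit over the 30 time-course libraries, 1 over CF1038 and N2 set 2, and 1 over both N2 day 6 sets. Each SE given with an edgeR value is the absolute log2 change divided by the square root of the F statistic. It is not an output of the test itself. The fitting was tested on simulated counts. Alternatives were RLE size factors, no filter, DESeq2, subsets of libraries, other controls and a replicate block; N2 set 2 libraries 1 to 20 as controls, N2 without libraries 24 to 30 and CF1038 without 9 and 11 were chosen after seeing the data. Library totals ran from 34443138 to 44161452 counts. No 2 libraries of a group agreed within sampling noise (lowest mean chi-square per gene 7.11).

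Members and lists were chosen with earlier results of these data known. Genes named were the abundant members, those with a role in the literature and, per comparison and direction, those with the largest called change that reached 10 CPM in either group's mean, and of the companion lists those with the smallest adjusted p. Genes of the wide-spread set and col-43, col-38, col-126 and col-127 were named after their values were seen.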

Additional observations from a re-analysis of the deposited data

Results flagged for a closer look

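For 35 members described here, each of the 5 N2 ages was checked for a library that stood far from the other 5 (Dixon's ratio at the 95% level), and 15 of 175 groups were flagged, where chance gives about 1 in 20. Library 5 of day 8 was the lowest in 6 of them: col-19 at 1325 CPM (next 1518), col-42 at 398 (530), col-103 at 245 (326), col-106 at 1371 (1628), col-142 at 32.6 (52.7) and col-143 at 3027 (3976). Library 3 of day 11 was lowest for col-119, at 4566 CPM against 5866 for the next, and highest for col-17, at 1.19 against 0.17 CPM. col-17 was also highest in library 6 of day 14 (0.58, next 0.18) and in library 2 of day 18 (0.29, next 0.10). Library 5 of day 14 was highest for col-80, at 169.5 CPM (next 99.3), and for col-167, at 1.69 (0.63). In library 6 of day 6 col-34 reached 38.2 CPM (next 23.4), in library 1 of day 18 col-166 reached 42.01 (35.1), and in library 5 of day 18 col-117 reached 1.83 CPM while the other 5 were at 0.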

How the results depend on the processing

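Members lower in CF1038, 40 in the main fit, numbered 79 with a replicate block and 77 with the same libraries (N2 set 2 libraries 1 to 20) and no block, 81, 19 and 5 with N2 set 2 libraries 1 to 10, 11 to 20 and 21 to 30 as controls, 7 with CF1038 libraries 1 to 10, and 74 without N2 libraries 24 to 30. Members higher, 3 in the main fit (18.0% of all genes tested were higher), numbered 6 with RLE size factors (19.9%), no filter (14.3%) and DESeq2 (20.2%). N2 libraries 1 to 10 (29.3%) and CF1038 libraries 11 to 20 (22.9%) also gave 6. All 36 N2 day 6 libraries gave 5 (15.7%), and N2 libraries 11 to 20 and 21 to 30 gave 1 and 9 (9.77% and 8.05%). Without CF1038 libraries 9 and 11 there were 8 (16.6%). With N2 libraries 21 to 30 the median became 0.23, and log2 values turned positive for col-146 (0.361), col-12 (0.13), col-176 (0.62), col-92 (0.074), col-107 (0.701), col-13 (0.411), col-39 (0.804), col-77 (0.405), col-166 (0.691), col-141 (0.348) and col-99 (0.41).

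Between the N2 sets, libraries 1 to 10 gave 19 lower, and libraries 21 to 30 gave 0 lower and 0 higher (edgeR; 20 members at an unadjusted p under 0.05) and -0.018 for col-99. col-98 was at 0.336 with libraries 1 to 10. At day 8, libraries 4 to 6 gave 30 lower and 1 higher, and all 36 day 6 libraries 76 and 20. Libraries 4 to 6 gave 5 higher at day 11 against day 8, 2 lower and 1 higher at day 14 against day 11 with a median of 0.04, and 4 higher at day 18 against day 14. Libraries 1 to 3 gave 22 lower and 8 higher at day 14 against day 11, and 0.434 for col-42 at day 18. With all 36 day 6 libraries, col-141 was at -0.109 and col-99 at -0.104 at day 18. The cause was not tested.

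Leaving out 1 library number at a time gave 39 to 47 lower and 2 to 7 higher at day 8, 48 to 56 and 15 to 19 at day 11, 61 to 70 and 19 to 24 at day 14, and 70 to 75 and 17 to 18 at day 18. It gave 14 to 16 and 4 to 12 for day 11 against day 8, 5 to 16 and 2 to 6 for day 14 against day 11, 46 to 53 and 6 to 16 for day 18 against day 14, and 105 to 115 members that differed among ages. The labels do not tie library numbers across groups, so numbers were not taken as pairs. Deviations of same-numbered libraries correlated above 0.1 in 25 of 60 pairs of the time course and in 16 of 20 of the strain libraries, where the median r was 0.335 against -0.018 for different numbers; 4 of 20 N2 and 3 of 20 CF1038 libraries correlated best with their own number. Beside the 79 above, the block moved no count by over 1.5 times. Of all alternatives for counts of members, 185 stayed within 1.5 times and 40 did not. The test among the 5 ages was not fitted with a block or with all 36 libraries. Depth limits trace members, of which 22 had too few counts to test in the time course.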
